A study of Equus asinus with 2 samples.

Results

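Endothelial cells with little or no PLVAP transcript were examined in fetal donkey (Equus asinus) tissue. They were 764 of 1940 cells in an endothelial gate, of 20086 cell barcodes with at least 1500 UMIs (unique molecular identifiers, which count captured RNA molecules) and of 23531 barcodes in all. The gate took barcodes in which EGFL7, EMCN, FLT1, CDH5 and TIE1 together reached 6 UMIs per 10000, with at least 3 of these 5 genes detected. Gate cells with PLVAP below 2 UMIs per 10000 were called low in PLVAP, and the others served as the comparison. The ovarian library of 8 weeks of gestation gave 313 such cells, and the library of gonad with mesonephros of 4 weeks gave 451. The mesonephros is the transient embryonic kidney beside the forming gonad.

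PLVAP encodes the protein of the diaphragms that close fenestrae, caveolae and transendothelial channels of capillaries. Endothelium of arteries and of continuous, barrier-type capillaries is known for little of it, and the fenestrae of the mature kidney glomerulus lack diaphragms. Fenestrated capillaries of endocrine organs and capillaries around kidney tubules are known for much of it. Arterial identity is driven by Notch signalling, lymphatic identity by the transcription factor PROX1, and vein identity by NR2F2.

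Each stage was 1 library, so stage, dissected tissue and library cannot be told apart and no test of a stage difference was possible. The number of fetuses behind a library is not given in the labels, which name the cell type of both as germ cells. In the library labelled ovary, 895 barcodes met a gate of Sertoli cell genes, a cell type of the testis. Libraries held 14593 barcodes with a median of 5877 UMIs at 8 weeks and 8938 barcodes with a median of 7728 at 4 weeks. They shared 38 barcodes, and 0 cells low in PLVAP shared a barcode with such a cell of the other library. Intervals are at 95% throughout and cover counting error only, not variation among animals. PLVAP chose the cells, so differences between cells low in PLVAP and other gate cells are given as descriptions without a test.

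At 8 weeks the cells low in PLVAP were the larger class of the endothelial gate, and at 4 weeks the smaller one. They made up 313 of 453 gate cells (69.1%, Clopper-Pearson interval 64.6 to 73.3%) at 8 weeks and 451 of 1487 (30.3%, 28.0 to 32.7%) at 4 weeks. No PLVAP UMI at all was found in 211 of the 313 cells and in 319 of the 451. Median PLVAP over the whole gate was 0.360 UMIs per 10000 at 8 weeks and 7.66 at 4 weeks, and in the cells above the limit it was 4.29 and 11.6. Just inside the limit lay values of 1.97 and 1.94 at 8 weeks and of 1.99 and 1.98 at 4 weeks. Just outside it lay 2.02 and 2.03 at 8 weeks, and at 4 weeks a value at the limit itself and one of 2.01. In each library 21 cells lay between 1.5 and 2 and 23 cells between 2 and 2.5.

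**Figure D1:**
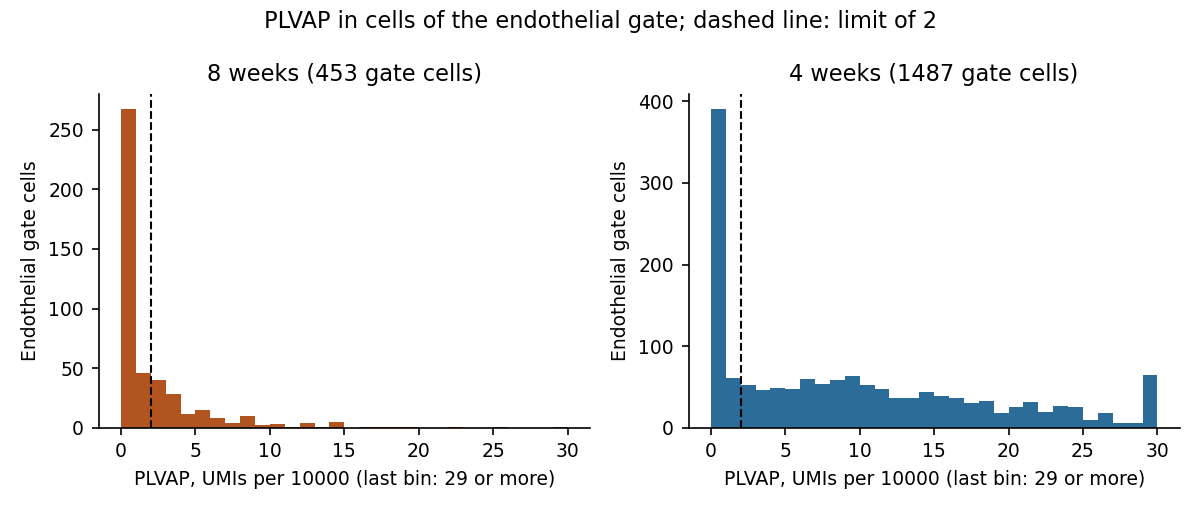
Histograms of PLVAP (x axis, UMIs per 10000 in bins of 1) over the cells of the endothelial gate (y axis, number of cells), with 453 cells at 8 weeks on the left and 1487 at 4 weeks on the right. The 8-week cells pile up below the dashed limit of 2, while at 4 weeks a wide second range lies above it around the median of 7.66.

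The higher share at 8 weeks was present in each class of depth. Among gate cells of 1500 to 3000 UMIs it was 77.6% at 8 weeks and 55.8% at 4 weeks, and a cell this shallow counted as low only with 0 PLVAP UMIs. Among gate cells of 10000 UMIs or more it was 73.3% (66.2 to 79.6%) at 8 weeks and 28.4% (25.1 to 31.9%) at 4 weeks. Median depth was 8298 UMIs in low cells and 7460 in other gate cells at 8 weeks, and 7735 and 9541 at 4 weeks.

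The cells carried endothelial genes as a class. CDH5, the adhesion molecule of endothelial junctions, stood at 623 counts per 1000000 UMIs (CPM) in low cells against 590 in other gate cells at 8 weeks, and at 540 against 400 at 4 weeks. EGFL7, a secreted endothelial factor, stood at 545 against 695 CPM at 8 weeks and 493 against 559 at 4 weeks. Both belong to the gate. Of genes outside the gate, PECAM1, a junction molecule, stood at 302 against 341 CPM at 8 weeks and 360 against 457 at 4 weeks, and KDR, the main VEGF receptor, at 455 against 510 and 563 against 457. Over 24 detected panendothelial markers, 4 were higher and 20 lower in low cells at 8 weeks, 1 past 2-fold lower. At 4 weeks 11 were higher and 13 lower, again 1 past 2-fold lower. Without the clusters of mixed RNA described below, 13 were higher and 11 lower at 8 weeks, and 15 and 9 at 4 weeks.

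RNA of other cell types was more frequent among the low cells. A gate of stroma, pericyte, macrophage, erythroid, Sertoli, germ, tubule or podocyte genes was also met by 66 low cells (21.1%) and 8 other gate cells (5.71%) at 8 weeks, and by 58 (12.9%) and 61 (5.89%) at 4 weeks. Among the low cells stroma was the most frequent of these, in 40 of 313 low cells and 4 of 140 others at 8 weeks, and in 17 of 451 and 13 of 1036 at 4 weeks. The Sertoli and erythroid gates went the other way at 4 weeks. They were met by 1.11% and 0.665% of low cells and by 1.35% and 0.869% of other gate cells. The 9 stromal markers summed to 1398 CPM in low cells and 533 in other gate cells at 8 weeks, and to 566 and 155 at 4 weeks. The 7 pericyte markers summed to 238 and 91.4 CPM, and to 107 and 28.7. Such barcodes were kept, no doublet caller was run, and the arterial, lymphatic, tip cell and mitotic lists are also given without the clusters of mixed RNA. Without them, median log2 ratios of low over other gate cells were -0.07 at 8 weeks and 0.42 at 4 weeks for barrier genes, -0.03 and 0.82 for lipid and caveolar genes of continuous capillaries, and -0.46 and -0.65 for venous genes.

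All 1940 gate cells were clustered with PLVAP left out of the genes used. The 3 clusters in which under 10% of cells were low in PLVAP held 1 of 453 gate cells (0.221%) at 8 weeks and 778 of 1487 (52.3%) at 4 weeks. They were led by DNASE1L3 and SRGN (387 cells at 4 weeks, PLVAP 1979 CPM) and by APOD and the globin gene HBZ (234 cells, 1035 CPM). The last was led by the cell-cycle genes CENPF and ASPM (157 cells, 903 CPM). Outside these 3 clusters, 312 of 452 gate cells (69.0%) were low at 8 weeks and 437 of 709 (61.6%) at 4 weeks. Most of the gap in share between the libraries thus went with these clusters, which were picked by their share low in PLVAP.

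**Figure D2:**
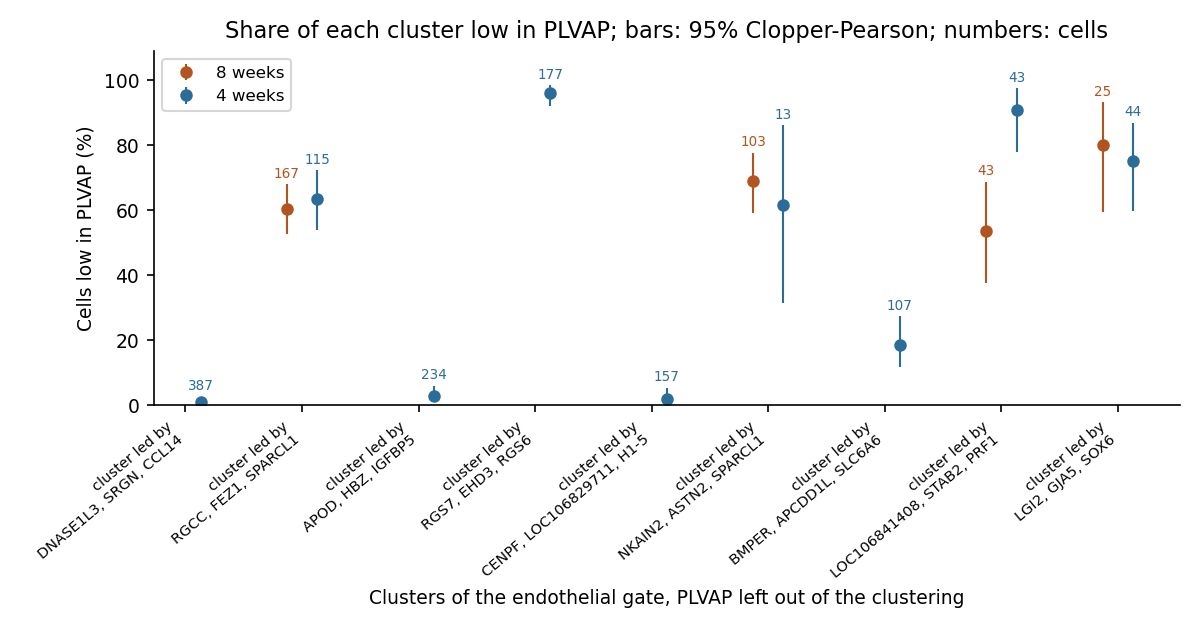
Share of cells low in PLVAP (y axis, percent, with 95% Clopper-Pearson bars and cell numbers) in each cluster of the endothelial gate that held under 33% of cells in another class's gate, with 8 weeks left of 4 weeks and only values from 10 or more cells. The clusters of DNASE1L3, APOD and CENPF lie at 1.03 to 2.99% and have no 8-week point, while the RGS7 and EHD3 cluster lies at 96.0%.

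Clusters present at both stages differed in how their shares compared. A cluster led by RGCC, a cell-cycle and complement response gene of endothelium, held 167 cells at 8 weeks, 60.5% of them low (52.6 to 67.9%), and 115 cells at 4 weeks, 63.5% of them low (54.0 to 72.3%). Its PLVAP level was 213 CPM at 8 weeks and 254 CPM at 4 weeks. A cluster led by NKAIN2, a membrane protein that interacts with the sodium pump, held 103 cells at 8 weeks, 68.9% of them low, and 13 cells at 4 weeks, 61.5% of them low. In both of these clusters SPARCL1 was among the 10 leading genes. A cluster of mixed RNA with stromal genes held 99 cells at 8 weeks, 84.8% of them low, and 79 cells at 4 weeks, 54.4% of them low. A smaller mixed cluster held 9 cells at 8 weeks, 88.9% of them low, and 41 cells at 4 weeks, 34.1% of them low.

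Most arterial genes were higher in cells low in PLVAP at both stages. GJA5, the connexin 40 of arteries, stood at 77.1 CPM in low cells and 39.9 in other gate cells at 8 weeks, and at 179 and 14.6 CPM at 4 weeks. GJA4, the connexin 37 of arteries and lymphatic valves, stood at 333 and 210 CPM at 8 weeks (ratio interval 1.41 to 1.79) and at 303 and 62.1 CPM at 4 weeks (4.52 to 5.25). HEY1, a transcription factor downstream of Notch, stood at 67.3 and 34.5 CPM, and at 74.7 and 19.2. All 3 were thus higher in low cells at both stages, with larger ratios at 4 weeks. The class of other gate cells was unlike at the stages, however. The 3 clusters nearly all above the PLVAP limit held 52.3% of gate cells at 4 weeks and 0.221% at 8 weeks. Ratios over other gate cells therefore cannot be compared between stages as changes in the low cells. Inside the RGCC cluster, present at both stages, the GJA4 ratio was not larger at 4 weeks, as given below.

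CXCR4, the receptor of CXCL12 in arterial and sprouting endothelium, stood at 148 CPM in low cells and 63.5 in other gate cells at 8 weeks, and at 76.9 and 22.3 CPM at 4 weeks. DKK2, a secreted modulator of Wnt signalling found in arteries, stood at 24.3 and 9.68 CPM, and at 27.8 and 2.28. MECOM, a transcription factor of arterial endothelium, stood at 430 and 314 CPM, and at 500 and 137. Of 18 arterial genes with at least 20 CPM in the higher class at 8 weeks, 16 were higher and 2 lower in low cells, 4 of them past 2-fold higher (CXCL12, DKK2, CXCR4 and LTBP4). Of 21 at 4 weeks, 20 were higher and 1 lower, 12 of them past 2-fold. CXCL12 and LTBP4 were also the only arterial markers met by the cluster of mixed RNA with stromal genes. Without the clusters of mixed RNA, 6 of 19 measured arterial genes were past 2-fold higher at 8 weeks. CXCL12 then stood at 51.3 CPM in low cells and 21.0 in other gate cells at 8 weeks.

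The median log2 ratio of low cells over other gate cells for the arterial list was 0.63 at 8 weeks and 1.53 at 4 weeks, beside 0.01 and 0.05 over all features. Without the clusters of mixed RNA it was 0.90 and 1.58. Over all features, 2.90% of 7862 were past 2-fold higher in low cells and 0.814% past 2-fold lower at 8 weeks, and 4.89% and 1.40% of 7940 at 4 weeks. By any amount, 4085 of the 7862 and 4623 of the 7940 were higher in low cells. The venous list lay on the other side, with 0 of 6 genes higher at 8 weeks and 1 of 7 at 4 weeks and median log2 ratios of -0.43 and -0.86. APLNR, the apelin receptor of veins and capillaries, stood at 119 CPM in low cells and 272 in other gate cells at 8 weeks, and at 93.9 and 293 CPM at 4 weeks.

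**Figure D3:**
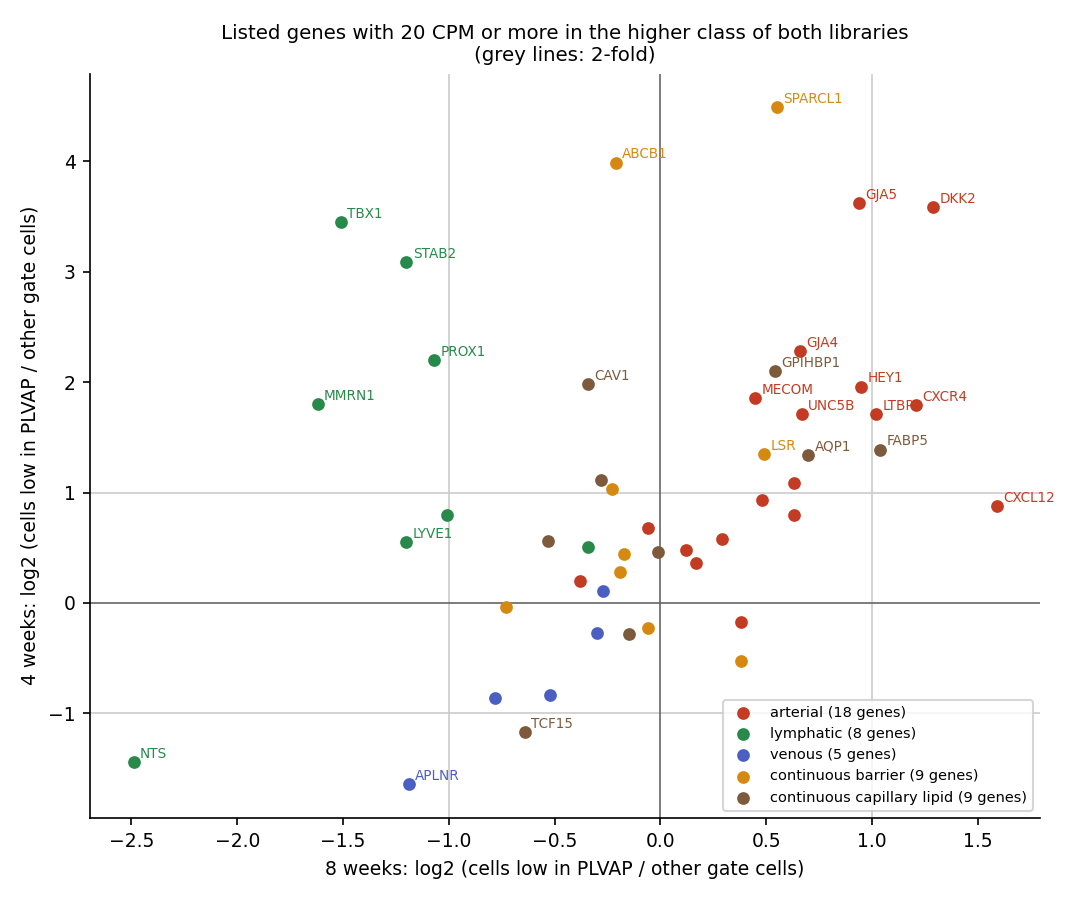
Log2 ratio of cells low in PLVAP over other gate cells at 8 weeks (x axis) and 4 weeks (y axis) for genes of 5 lists, with grey lines at 2-fold and names for genes far from 0. Arterial genes lie mainly at the upper right, most lymphatic genes at the upper left, and APLNR at the lower left.

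The arterial-like cluster was present at both stages and mostly low in PLVAP. It was 1 of the clusters made without PLVAP, with 21 of 23 arterial markers at least 2-fold above the other gate cells. It held 25 cells at 8 weeks, 80% of them low (59.3 to 93.2%). At 4 weeks it held 44 cells, 75% of them low (59.7 to 86.8%). The shares of the whole gate were 69.1% at 8 weeks, inside the interval of the cluster, and 30.3% at 4 weeks, outside it. The cluster's PLVAP level was 72.6 CPM (41.5 to 118) at 8 weeks and 201 CPM (174 to 232) at 4 weeks. GJA4 reached 2768 CPM in it at 8 weeks and 1551 CPM at 4 weeks, and GJA5 reached 1679 and 978 CPM.

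A further cluster of 4 weeks, led by BMPER, a secreted regulator of bone morphogenetic proteins, met 11 of 23 arterial markers but had none among its 10 leading genes and is left unnamed. Only 20 of its 107 cells there (18.7%) were low in PLVAP, and its PLVAP level was 1064 CPM. GJA5 stood at 634 CPM (486 to 813) in its 20 low cells and at 39.1 CPM (23.9 to 60.4) in its 87 other cells. GJA4 stood at 1227 and 479 CPM, and SOX6, a transcription factor that was also high in the arterial-like cluster, at 655 and 184 CPM. Within this cluster, the cells low in PLVAP thus carried the higher levels of all 3.

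GJA4 and UNC5B were also higher in the low cells inside the clusters of RGCC and NKAIN2. In the NKAIN2 cluster at 8 weeks, GJA4 stood at 489 CPM (415 to 573) in 71 low cells and 73.0 CPM (36.4 to 131) in 32 other cells, and CXCR4 at 448 and 79.6 CPM. UNC5B, a netrin receptor of arteries and sprouts, stood there at 524 and 146 CPM. ESM1, a proteoglycan of endothelial tip cells at the front of sprouts, stood at 339 and 66.3 CPM, and ANGPT2, an angiopoietin made by tip cells, at 163 (121 to 214) and 13.3 CPM (1.61 to 47.9). All 5 genes were thus higher in the low cells of this cluster. APLNR went the other way, with 147 CPM in low cells and 676 in other cells, as did NR2F2 with 28.8 and 172 CPM and TEK, the angiopoietin receptor, with 160 and 391 CPM. The median depth of this cluster was 3675 UMIs at 8 weeks, and its 71 low cells held 6 PLVAP UMIs in all.

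In the deeper RGCC cluster, of median 10169 UMIs at 8 weeks and 22647 at 4 weeks, differences were smaller. GJA4 stood at 230 CPM in 101 low cells and 96.1 in 66 other cells at 8 weeks, and at 134 in 73 low cells and 71.2 in 42 other cells at 4 weeks. ESM1 stood at 124 and 53.6 CPM, and at 153 and 68.8. APLNR stood at 150 and 314 CPM, and at 180 and 325, so its direction was shared by both stages. CXCR4 stood at 163 and 45.8 CPM at 8 weeks but at 86.4 (73.0 to 101) and 81.9 CPM (66.6 to 99.6) at 4 weeks, where the intervals overlapped. The same held for ANGPT2, with 32.0 and 6.71 CPM at 8 weeks and 21.0 and 19.7 CPM at 4 weeks.

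**Figure D4:**
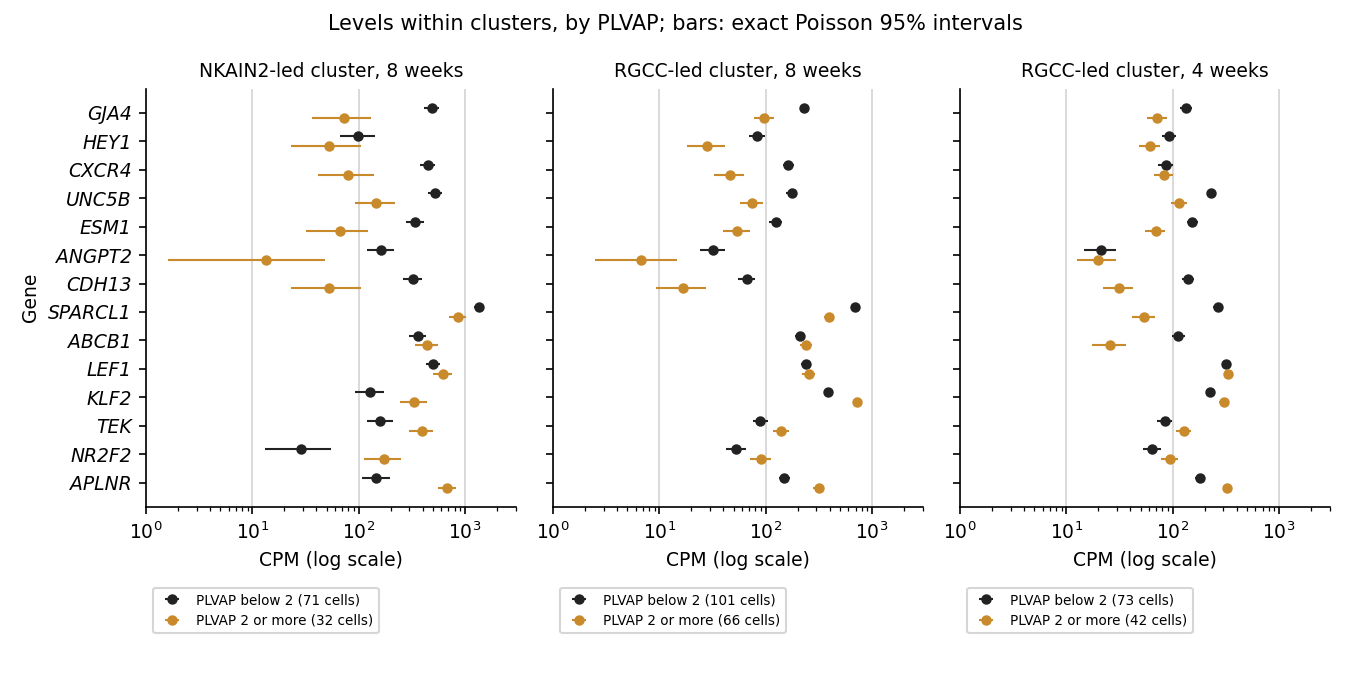
Levels of 14 genes (x axis, CPM on a log scale, with exact Poisson 95% bars) in cells with PLVAP below 2 UMIs per 10000 (black, upper point) and in cells at 2 or more (orange, lower point) of the NKAIN2 cluster at 8 weeks and the RGCC cluster at 8 and 4 weeks. GJA4, UNC5B, ESM1 and CDH13 lie higher in the low cells of all 3 panels, and KLF2, TEK, NR2F2 and APLNR lie lower.

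Lymphatic genes went in opposite directions at the stages. STAB2, a scavenger receptor of lymphatic and sinusoidal endothelium, stood at 110 CPM in low cells and 254 in other gate cells at 8 weeks, but at 193 and 22.6 CPM at 4 weeks. PROX1 stood at 26.2 and 55.1 CPM, against 79.9 and 17.3 at 4 weeks. MMRN1, a secreted multimerin, stood at 21.7 and 66.6 CPM at 8 weeks and at 33.7 and 9.69 CPM at 4 weeks. All 8 measured lymphatic genes were lower in low cells at 8 weeks, 7 of them past 2-fold, and 7 of 8 were higher at 4 weeks, 4 of them past 2-fold, with NTS the exception and past 2-fold lower. Median log2 ratios were -1.20 and 1.30, and -0.91 and 1.72 without the clusters of mixed RNA.

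The lymphatic-like cluster differed in PLVAP between the libraries. It met 8 of 12 lymphatic markers (PROX1, LYVE1, FLT4, RELN, TBX1, MMRN1, NTS and STAB2). It also met 4 of 9 sinusoidal markers (STAB1, STAB2, MRC1 and LYVE1), enough for a sinusoidal name under the same rule. The cluster held 43 cells in each library. Of these, 53.5% (37.7 to 68.8%) were low in PLVAP at 8 weeks and 90.7% (77.9 to 97.4%) at 4 weeks, and the cluster's PLVAP level was 242 CPM (196 to 294) at 8 weeks and 87.2 CPM (68.2 to 110) at 4 weeks. Median depth was 6885 UMIs at 8 weeks and 14005 at 4 weeks. Within the 8-week cluster, STAB2 stood at 2270 CPM in 23 low cells and 2124 in 20 other cells, with overlapping intervals (2070 to 2484 and 1925 to 2337). PROX1 stood there at 514 and 436 CPM, again with overlapping intervals (421 to 621 and 349 to 538). Of gate cells with UMIs of at least 2 of PROX1, TBX1 and MMRN1, 54.3% of 46 (39.0 to 69.1%) were low at 8 weeks and 50.6% of 81 (39.3 to 61.9%) at 4 weeks, so the intervals overlapped. At 8 weeks the cluster's 43 cells were set in a gate of 453 cells, at 4 weeks in one of 1487.

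CCL21 and PDPN, the other lymphatic markers often used, were near 0 in the low cells. CCL21 had 0 CPM in low cells at 8 weeks and 0.295 at 4 weeks, and PDPN 1.49 and 2.36 CPM. Of 9 markers of sinusoidal endothelium, which shares STAB2 and LYVE1 with the lymphatic list, 1 of 5 measured was higher in low cells at 8 weeks and 3 of 5 at 4 weeks.

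Genes of continuous, barrier-type capillaries set the low cells apart at 4 weeks but not as a group at 8 weeks. SPARCL1, a secreted matricellular protein abundant in vessels of the brain, stood at 577 CPM in low cells and 394 in other gate cells at 8 weeks, and at 176 and 7.82 CPM at 4 weeks (ratio interval 18.8 to 27.1). ABCB1, the drug efflux pump of the blood-brain barrier, stood at 174 and 200 CPM at 8 weeks, where it was lower in low cells (log2 ratio 0.15, and thus higher, with only 0 PLVAP UMIs counted as low), and at 71.6 and 4.50 CPM at 4 weeks. LEF1, a transcription factor of Wnt signalling in barrier endothelium, stood at 198 and 232 CPM, and at 146 and 71.3. Of 9 barrier genes measured at 8 weeks, 3 were higher and 6 lower, 0 past 2-fold in either direction. Of 10 at 4 weeks, 7 were higher and 3 lower, 5 of them past 2-fold higher (ABCB1, LEF1, SPARCL1, OCLN and LSR).

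After thinning each cell to 1500 UMIs, SPARCL1 was detected in 54.3% of low cells and 36.4% of other gate cells at 8 weeks, and in 10.9% and 0.676% at 4 weeks. Without thinning these shares were 78.3% and 62.1%, and 27.1% and 5.12%. In barcodes of the Sertoli gate, which should lack the gene, the thinned share was 1.13% at 8 weeks and 0% at 4 weeks (up to 0.413% by the limit of 3 counts), at median depths of 20803 and 20007 UMIs.

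The 4-week contrast of SPARCL1 and ABCB1 was present inside the RGCC cluster too. SPARCL1 stood there at 265 CPM (241 to 290) in low cells and 53.2 CPM (41.1 to 67.8) in other cells, and ABCB1 at 113 (97.8 to 130) and 25.4 CPM (17.2 to 36.0). At 8 weeks SPARCL1 stood at 697 and 392 CPM in the cluster, and ABCB1 at 210 and 240 CPM with overlapping intervals (189 to 232 and 209 to 275). Barrier transporters other than ABCB1 stood at 50.2 CPM or less in the cells low in PLVAP. SLC2A1, the glucose transporter of the barrier, stood at 50.2 CPM at 8 weeks and 39.9 at 4 weeks, MFSD2A, its lipid transporter, at 9.79 and 6.20 CPM, and SLC7A5, an amino acid transporter, at 4.47 and 4.58 CPM.

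Genes of lipid handling and caveolae in continuous capillaries likewise differed more at 4 weeks. CAV1, the coat protein of caveolae, stood at 98.8 CPM in low cells and 125 in other gate cells at 8 weeks, and at 82.6 and 21.0 CPM at 4 weeks. GPIHBP1, which carries lipoprotein lipase to the capillary lumen, stood at 189 and 130 CPM, and at 197 and 45.8. AQP1, a water channel, stood at 27.9 and 16.9 CPM, and at 26.6 and 10.5. Of 10 genes of this list at 8 weeks 3 were higher and 7 lower, 1 past 2-fold higher (FABP5), and of 9 at 4 weeks 7 were higher and 2 lower, 5 past 2-fold higher and 1 past 2-fold lower (TCF15). FABP5, a fatty acid binding protein of many cell types, stood at 426 and 208 CPM and at 385 and 146, but at 194 and 146 and at 82.9 and 61.9 without the clusters of mixed RNA. FABP4 and CD36, hallmarks of adult continuous capillaries, stood at or below 4.26 CPM in low cells of both stages.

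A large block of the 4-week low cells carried genes of glomerular endothelium. A glomerular-endothelium-like cluster met 7 of 14 markers (EHD3, TBX3, GATA5, PI16, IGFBP5, TSPAN7 and SMAD6) and held 177 gate cells at 4 weeks, 96.0% of them low in PLVAP (92.0 to 98.4%), and 0 at 8 weeks. Its PLVAP level was 35.6 CPM (24.9 to 49.3) at a median depth of 4474 UMIs. EHD3, an endocytic protein of glomerular endothelium, stood at 533 CPM in it, and GPIHBP1 at 530 CPM. SPARCL1 had 0 UMIs in it, which allows up to 2.96 CPM, and ABCB1 stood at 0.988 CPM. GJA5 stood at 302 CPM in these cells and 5 of 23 arterial markers were met, so these cells held a part of the GJA5 of the 4-week low cells. The share low was smaller when cells were picked by marker genes. Of 4-week gate cells with UMIs of at least 2 of EHD3, TBX3 and GATA5, 69.2% of 260 (63.2 to 74.8%) were low. Among such cells of at least 5000 UMIs it was 57.1% of 175 (49.5 to 64.6%). Of the gate cells without these markers, 22.1% and 20.6% were low.

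Without the glomerular-endothelium-like cells, the share of low cells among the remaining 4-week gate cells was 21.5%. Of the kidney cells next to this endothelium, the 6 podocyte markers summed to 409 CPM in low cells and 59.1 in other gate cells at 4 weeks, and to 103 and 39.1 CPM without the clusters of mixed RNA. The median log2 ratio of the glomerular list without those clusters was -0.10 at 8 weeks and 0.61 at 4 weeks.

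Over all genes, the contrast with other gate cells was past 2-fold in the same direction at both stages for few genes. Of 7281 features with at least 20 CPM in the higher class of each library, 91 (1.25%) were higher in low cells in both and 15 (0.206%) lower in both. Without the clusters of mixed RNA, 48 features were higher in both, and 26 features were in both sets, that is 26 of 91 and 26 of 48. For lower features the counts were 15 and 11, with 9 in both sets. Without these clusters 7802 features were measured at 8 weeks, 134 of them past 2-fold higher and 100 past 2-fold lower. At 4 weeks 7702 were measured, with 350 past 2-fold higher and 130 past 2-fold lower. The number measured in both libraries is not given for this setting. The 48 included GRM8, CDH13, GJA5, HEY1, SOX6, DKK2, CXCR4, ESM1, ANGPT2, ADM, ELN, JAG2 and PRND. The 11 included APLNR, IL3RA, PKHD1L1, RARB, PTGS2, SEMA3A and S100A4.

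Among features of at least 100 CPM, the genes with the most even excess in low cells were in part genes of stroma. COL1A2, a fibrillar collagen chain, stood at 342 CPM in low cells and 110 in other gate cells at 8 weeks and at 154 and 46.0 CPM at 4 weeks, but at 78.5 and 38.0 and at 14.7 and 12.7 CPM without the clusters of mixed RNA. COL1A1 and COL3A1, the other main fibrillar chains, were 2.43 and 2.19 times as high in low cells at 8 weeks and 3.35 and 5.34 times at 4 weeks, and with low meaning 0 PLVAP UMIs the 8-week log2 ratio of COL3A1 was -0.10. PEG10, PTPRD and GPC3 had ratios of 2.14 to 2.77 at 8 weeks and 2.39 to 2.52 at 4 weeks, and of 1.35 to 1.41 and 1.17 to 1.39 without mixed cells. PCDH9, ATRNL1, TENM4, ADGRL3 and PLAGL1 were the others of this kind. The stromal and pericyte sums given above were higher in low cells in the same way.

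Other genes of this set kept ratios past 2-fold without the mixed cells. NKAIN2 stood at 257 CPM in low cells and 94.4 in other gate cells at 8 weeks and at 200 and 31.5 CPM at 4 weeks, and at 367 and 110 and at 272 and 33.4 CPM without mixed cells. SOX5, a transcription factor related to SOX6, stood at 225 and 112 CPM and at 328 and 135, and its ratios without mixed cells were 2.11 and 2.77. PDE3A, a phosphodiesterase of vessel walls, had ratios of 2.36 and 4.43, and of 2.43 and 6.25 without mixed cells. CDH13, an atypical cadherin that binds adiponectin, was below the level for this set, at 96.9 and 24.2 CPM at 8 weeks and 63.7 and 10.5 CPM at 4 weeks, and had ratios of 4.32 and 10.4 without mixed cells.

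On the lower side, PLVAP itself stood at 47.3 CPM in low cells and 482 in other gate cells at 8 weeks, and at 47.8 and 1074 CPM at 4 weeks, as the choice of cells sets. APLNR and TEK came next, TEK with 77.1 and 157 CPM at 8 weeks and 116 and 288 CPM at 4 weeks. KLF2, a transcription factor induced by blood flow, stood at 281 and 544 CPM, and at 192 and 340. NRP2, a coreceptor for VEGF-C, stood at 162 and 277 CPM, and at 191 and 347. CHN1, a regulator of Rac, was 0.503 and 0.373 times as high in low cells, PIEZO2, a mechanosensitive channel, 0.619 and 0.615 times, and CALCRL, the adrenomedullin receptor, 0.526 and 0.697 times. SLC9A9, FXYD5, SNTB2, CDKL3, ZNF521, NUMB and TXNIP had ratios of 0.501 to 0.689 at 8 weeks and 0.508 to 0.670 at 4 weeks. With low meaning 0 PLVAP UMIs, SLC9A9, ZNF521, NUMB and CALCRL at 8 weeks and NUMB and TXNIP at 4 weeks were higher in low cells instead. The gate genes EMCN, FLT1 and TIE1 were 0.633 to 0.924 times as high at 8 weeks and 0.825 to 0.957 times at 4 weeks, and FLT1 at 4 weeks changed direction under several other settings.

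Tip cell genes were higher in the low cells at both stages. Of 13 measured at 8 weeks 12 were higher, 5 past 2-fold, and of 11 at 4 weeks 10 were higher, 6 past 2-fold, with median log2 ratios of 0.85 and 1.09. ESM1 stood at 93.2 CPM in low cells and 51.4 in other gate cells at 8 weeks, and at 65.0 and 16.8 CPM at 4 weeks. ADM, the peptide adrenomedullin, stood at 72.2 and 34.5 CPM, and at 40.9 and 16.9. CXCR4, UNC5B and DLL4 are in both the tip cell and the arterial list. Without the clusters of mixed RNA the medians were 1.01 and 1.16.

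Genes of mitosis differed in direction between the stages. All 23 measured genes of the G2 and M phases were higher in low cells at 8 weeks, 11 past 2-fold, with a median log2 ratio of 0.98, and all 25 were lower at 4 weeks, 0 past 2-fold, with a median of -0.27. TOP2A, a topoisomerase of dividing cells, stood at 120 CPM in low cells and 44.8 in other gate cells at 8 weeks, and at 135 and 169 CPM at 4 weeks. The median at 8 weeks was 0.74, with 2 genes past 2-fold, without the clusters of mixed RNA, and it turned to -0.24 when only cells with 0 PLVAP UMIs counted as low. At 4 weeks the cluster of CENPF and other mitotic genes was among the 3 clusters that were nearly all above the PLVAP limit.

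The 764 cells were also clustered on their own, which gave 10 subclusters with different leading genes. Named by markers, the largest, of 187 cells, was glomerular-endothelium-like and held 41.5% (36.9 to 46.2%) of the low cells at 4 weeks and 0 of 313 at 8 weeks, which allows up to 0.958%. An arterial-like subcluster met 20 of 23 arterial markers and held 20 cells at 8 weeks (6.39%, 3.95 to 9.70%) and 30 at 4 weeks (6.65%, 4.53 to 9.36%). A lymphatic-like one met 8 of 12 lymphatic markers and held 23 cells at 8 weeks (7.35%, 4.71 to 10.8%) and 38 at 4 weeks (8.43%, 6.03 to 11.4%). This subcluster also met 5 of 9 sinusoidal markers. With each library clustered alone, 49 low cells were arterial-like at 4 weeks in place of 30, and 21 at 8 weeks.

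3 unnamed subclusters differed in size between the stages. A subcluster led by GPRIN3, NKAIN2, SPARCL1 and ESM1 held 87 cells at 8 weeks (27.8%) and 5 at 4 weeks (1.11%), and met 6 of 14 tip cell and 4 of 20 barrier markers. Another, led by RGCC, FAM167B, MGLL and ISG15, held 68 cells at 8 weeks (21.7%) and 12 at 4 weeks (2.66%). A further one, led by OSBPL3, ANO2 and CHN1, held 20 cells at 8 weeks (6.39%) and 92 at 4 weeks (20.4%). In these subclusters SPARCL1 and ABCB1 were present, while both were at or near 0 in the glomerular-endothelium-like and lymphatic-like ones.

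The other 4 subclusters held RNA of other classes. They had 95 cells at 8 weeks and 87 at 4 weeks, and 116 of these 182 cells met another class's gate. A subcluster of 57 cells at 8 weeks and 21 at 4 weeks met all 9 stromal and 5 of 8 macrophage markers, and one of 29 and 22 cells met 6 of 7 pericyte markers. One of 29 cells, all of 4 weeks, met 5 of 6 podocyte markers, and one of 9 and 15 cells met 6 of 7 Sertoli and 6 of 7 germ cell markers. Whether these are doublets, cells in contact or cells with free RNA was not tested.

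**Figure D5:**
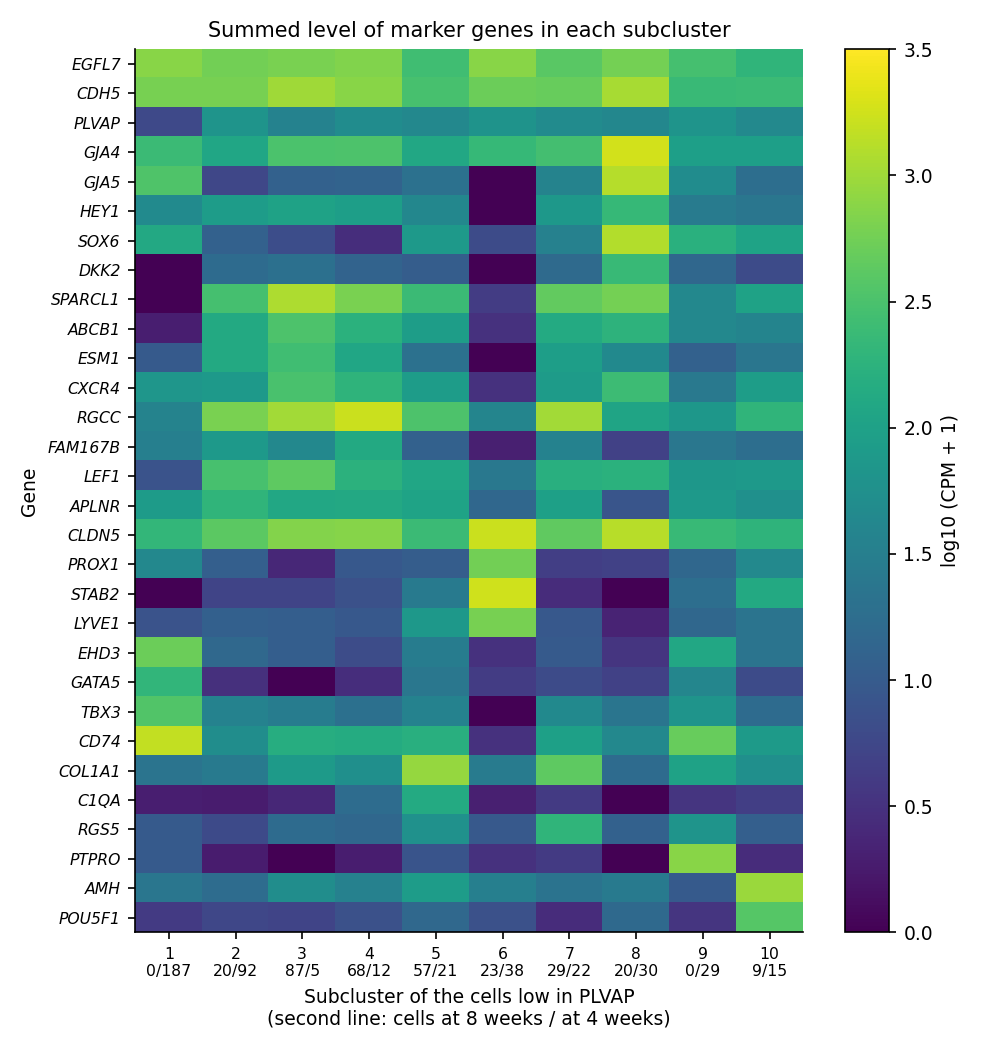
Summed levels (colour, log10 of CPM + 1) of 30 marker genes (rows) in the 10 subclusters of the cells low in PLVAP (columns, with cells at 8 weeks before cells at 4 weeks). GJA4, GJA5 and SOX6 are brightest in subcluster 8, STAB2 and PROX1 in subcluster 6, EHD3 and GATA5 in subcluster 1, and COL1A1, RGS5, PTPRO and AMH in subclusters 5, 7, 9 and 10.

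Between the stages, RGCC, SPARCL1 and ABCB1 of the low cells were past 2-fold higher at 8 weeks, and 6 of 10 measured glomerular endothelium genes were past 2-fold lower. Of 10 measured genes of lipid handling and caveolae, 7 were higher at 8 weeks, 2 of them past 2-fold, with a median log2 ratio of 0.17. RGCC stood at 1081 CPM in low cells at 8 weeks and 231 at 4 weeks, a ratio of 4.69 (4.43 to 4.96), SPARCL1 at 577 and 176 CPM, a ratio of 3.28 (3.06 to 3.51), and ABCB1 at 174 and 71.6 CPM, a ratio of 2.43 (2.16 to 2.72). IGFBP7, an angiocrine binding protein of vessels, stood at 3290 and 1122 CPM. B2M, the light chain of MHC class I, stood at 4371 and 1447. These differences were not confined to the low cells. In other gate cells RGCC stood at 1090 CPM at 8 weeks and 168 at 4 weeks, SPARCL1 at 394 and 7.82, and ABCB1 at 200 and 4.50. IGFBP7 stood there at 3142 and 230 CPM, and B2M at 3700 and 1489. Of 8213 features with at least 20 CPM in the higher library, 284 (3.46%) were past 2-fold higher at 8 weeks and 365 (4.44%) past 2-fold lower. By any amount, 3674 were higher at 8 weeks and 4539 lower.

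The interferon response genes ISG15 and BST2 were 4.66 and 2.93 times as high at 8 weeks, and MGLL, a lipase, 3.23 times. In other gate cells ISG15 stood at 188 CPM at 8 weeks and 15.5 at 4 weeks, BST2 at 460 and 84.2, and MGLL at 91.4 and 46.5. ACTA2 and TAGLN, genes of smooth muscle, were 11.6 and 3.21 times as high, and DCN and PCDH9 3.97 and 2.80 times. CCL4, a chemokine of macrophages, was 6.21 times as high. For these last 5 genes, stromal markers summed to 1398 CPM at 8 weeks and 566 at 4 weeks, smooth muscle markers to 410 and 138, and macrophage markers to 153 and 49.2 CPM, and the part of such RNA was not tested.

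Lower at 8 weeks were, first, genes of kidney. S100G, a calcium-binding protein of tubules, had 0.213 and 219 CPM, and GPX3, a secreted peroxidase of tubules, 0.852 and 138 CPM. S100G was as high in other gate cells of 4 weeks, at 230 CPM. EHD3 stood at 5.96 and 106 CPM, RGS7, which leads the glomerular-endothelium-like cluster, at 4.04 and 323, and IGFBP5 at 4.47 and 133. In other gate cells EHD3 stood at 3.03 CPM at 8 weeks and 15.6 at 4 weeks, RGS7 at 3.03 and 83.1, and IGFBP5 at 15.7 and 208. Of 10 measured glomerular endothelium genes 6 were past 2-fold lower at 8 weeks, with a median log2 ratio of -1.24 beside -0.08 over all features. CHRM3, MAGI2, ANKRD44, MEIS2, MAF and the ribosomal gene RPL37A were 0.229 to 0.260 times as high at 8 weeks. MAGI2 stood at 41.7 CPM at 8 weeks and 37.0 CPM at 4 weeks without the clusters of mixed RNA, a ratio of 1.13.

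Arterial genes of the low cells were close at the stages as a list, with 10 of 21 higher and 11 lower at 8 weeks and a median log2 ratio of -0.07. GJA4 stood at 333 CPM at 8 weeks and 303 at 4 weeks, while GJA5 stood at 77.1 and 179 CPM. All 7 measured lymphatic genes were lower at 8 weeks, 2 of them past 2-fold (PROX1 and TBX1), with a median log2 ratio of -0.80. That median turned to 0.37 when each cell counted equally and to 0.17 when low meant 0 PLVAP UMIs. Of 13 tip cell genes 12 were higher at 8 weeks, 2 past 2-fold, with a median of 0.78, and of 10 barrier genes 6 were higher, 2 past 2-fold (ABCB1 and SPARCL1), with a median of 0.28. The share of each subcluster differed between the stages as given above, so these values are levels over the whole mixture of low cells.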

How the data were processed

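The deposited values were whole-number UMI counts per gene and barcode, not normalized. The file headers name Cell Ranger 7.1.0 and the submitters' processing notes Cell Ranger 2.1.1. Per the labels, libraries came from a DNBelab C droplet kit, yet barcodes look like those of a different chemistry. The sources used here do not give the build or the annotation. Of 38517 features, 16536 carried a symbol, 768, PLVAP among them, were named through RefSeq gene IDs of the donkey, 21213 stayed unnamed, and 0 were mitochondrial. No barcode was removed beyond the limit of 1500 UMIs.

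Counts were summed per class and library as CPM, with exact Poisson intervals, exact conditional binomial intervals for ratios, and 0.5 UMI added for log2 ratios. These cover counting error only. A gene was measured with at least 20 CPM in the higher class and called past 2-fold. The ratios and calls were tested on simulated data. Clusters were made with Leiden (leidenalg 0.10.2, resolution 0.6, seed 1) on 2000 variable genes without haemoglobin genes, 20 principal components and 15 neighbours, without batch integration. A name needed 3 markers at 2-fold (10 CPM added), 33% of its list and at least 1 marker among the 10 leading genes. The tip cell list, a state that shares genes with the arterial list, named no cluster. Both choices were made after values were seen. A cluster was called mixed when at least 33% of its cells met another class's gate. Python 3.11.15, numpy 2.4.6, scipy 1.17.1 and pandas 2.3.3 were used.

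Genes named between classes were up to 15 highest and 15 lowest in the library closer to 1, with at least 100 CPM in both libraries, and up to 12 each way between stages, plus the gate genes, the given markers and members of each list. Genes that cluster values single out beyond this rule, such as BMPER, SOX6, CDH13 and GRM8, were chosen after their values were seen. The cells and lists were chosen with earlier results of these data known. The clusters of the whole gate and the results without mixed clusters were added after seeing the data. 1 gene that the rule names between stages is not reported here. No sequences are shown.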

Additional observations from a re-analysis of the deposited data

Results flagged for a closer look

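STAB2, the scavenger receptor of lymphatic endothelium, had a log2 ratio of cells low in PLVAP over other gate cells of -1.20 at 8 weeks and of 3.09 at 4 weeks. It stood out because the same contrast ran in opposite directions at the stages. The difference was not tested, since each stage is 1 library.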

How the results depend on the processing

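No paired analysis was possible because each stage is 1 library. The share of gate cells low in PLVAP at 4 weeks was 26.3% with a minimum of 5000 UMIs. It was 58.9% at 8 weeks and 26.2% at 4 weeks with PLVAP below 1, 46.6% and 21.5% with PLVAP at 0, 84.1% and 36.9% with PLVAP below 4, 63.8% and 28.0% without mixed clusters, and 21.5% at 4 weeks without the glomerular-endothelium-like cluster. It stayed higher at 8 weeks in each of these pairs.

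Genes 2-fold higher in low cells in both libraries numbered 51 with PLVAP at 0, 137 below 4, 50 with a gate of 12, 45 with cells of other gates left out, 414 with a minimum of 10 UMIs, 13 with a minimum of 100 CPM and 48 without mixed clusters. Genes lower in both numbered 8 with PLVAP below 1, 2 at 0, 44 with 10 UMIs and 3 with 100 CPM. Between stages, 576 were higher and 580 lower with PLVAP at 0, 579 were higher by means over cells, and with 100 CPM 99 were higher and 89 lower. With 10 UMIs there were 898 genes 2-fold higher at 8 weeks and 2279 genes 2-fold lower at 8 weeks. The minimum of 10 UMIs stood in place of the limit of 20 CPM, so more features were measured. Numbers of measured features are not given for these settings. Their counts thus cannot be compared as shares with the main ones, of 7281 features for both libraries and 8213 between stages. With each library clustered alone, 49 low cells were arterial-like at 4 weeks, against 30 when clustered together.

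These values changed sign. With PLVAP at 0, the median log2 ratio at 8 weeks was 0.12 for glomerular, -0.24 for G2 and M phase, -0.21 for S phase and 0.18 for Wnt genes, and 0.17 for lymphatic genes between stages. Log2 ratios were -0.10 for COL3A1, 0.33 for SLC9A9, 0.46 for ZNF521, 0.06 for NUMB, 0.08 for CALCRL, 0.35 for EMCN, 0.07 for FLT1 and 0.15 for ABCB1 at 8 weeks, and 0.08 for NUMB, 0.11 for TXNIP, 0.21 for EMCN, 0.49 for FLT1 and 0.28 for TIE1 at 4 weeks. With PLVAP below 1, Wnt genes had 0.01 at 8 weeks and FLT1 0.03 at 4 weeks, and below 4, S phase genes had -0.04 at 8 weeks. FLT1 at 4 weeks had 0.13 with a gate of 12, 0.02 without cells of other gates and 0.12 without mixed clusters, and ABCB1 at 8 weeks had 0.04 with a gate of 12. By means over cells, lymphatic genes between stages had 0.37, and EMCN, FLT1 and TIE1 at 4 weeks 0.09, 0.24 and 0.04. With 100 CPM, glomerular genes had -0.64 at 4 weeks and Notch genes -0.14 at 8 weeks and -0.02 at 4 weeks. Without mixed clusters, TENM4 had -0.10 at 8 weeks, EGFL7 0.04 at 4 weeks and MAGI2 0.18 between stages. The causes were not tested. Arterial and tip cell medians of low over other gate cells stayed above 0 in each setting run.

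Every value rests on 1 library a stage, so the spread between animals is unknown. Cells low in PLVAP are defined by few UMIs, and below 5000 UMIs the limit of 2 per 10000 means 0 UMIs. Free RNA, doublets and the annotation of donkey genes limit the levels of genes near 20 CPM.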

Other observations

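Of 17 basement membrane genes 13 were higher in low cells at 8 weeks and 14 at 4 weeks, with median log2 ratios of 0.07 and 0.62. COL4A1, a main collagen of the vessel basement membrane, stood at 2163 CPM in low cells and 2043 in other gate cells at 8 weeks, and at 1405 and 827 CPM at 4 weeks. COL15A1, a collagen of capillary basement membranes, stood at 490 and 389 CPM, and at 241 and 98.8. Of 14 Notch pathway genes 8 were higher at 8 weeks and 11 at 4 weeks, 0 and 5 of them past 2-fold, with medians of 0.26 and 0.80. Among all measured features, 4085 of 7862 were higher in low cells at 8 weeks and 4623 of 7940 at 4 weeks.

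Leukocyte markers were near 0 in the low cells. The 8 leukocyte markers summed to 13.6 CPM in low cells and 4.84 in other gate cells at 8 weeks, and to 12.4 and 3.68 at 4 weeks. PTPRC, the common leukocyte antigen CD45, stood at 4.04 and 1.21 CPM, and at 2.81 and 0.817. MEOX2, a transcription factor of continuous capillaries, stood at 42.6 and 49.6 CPM at 8 weeks, and at 14.6 and 2.74 CPM at 4 weeks.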
